A study of Mus musculus with 8 samples.

Results

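The CXC chemokine genes of cultured mouse microglia were examined, with and without IgG. The genes were chosen by symbol from the deposited count table and were *Cxcl1*, *Cxcl2*, *Cxcl3*, *Cxcl9*, *Cxcl10*, *Cxcl13*, *Cxcl14*, *Cxcl16* and *Pf4* (platelet factor 4, also a CXC chemokine), 9 of the 55385 genes in that table. Primary microglia came from the neocortex and hippocampus of wild-type newborn mice, with the cells of several brains pooled in each culture and the meninges removed, and were shaken off a mixed glial culture and replated. IgG cultures received 10 µg/ml IgG at 15 days in vitro (DIV15) for 24 h, and control cultures were labelled untreated, while the methods describe a buffer control. RNA sequencing of polyA RNA gave 4 control and 4 IgG libraries, and libraries of the same number carry the same date, which made 4 pairs of cultures. The labels do not say what the date marks. The question addressed is which genes changed in microglia after contact with IgG.

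Of the 9 chemokine genes, *Cxcl9*, *Cxcl13* and *Cxcl16* were higher with IgG in all 4 pairs, which held for 10.4% of the genes tested. The ratio of the mean levels was 3.24 for *Cxcl9*, 2.32 for *Cxcl13* and 1.35 for *Cxcl16*. *Cxcl9* met the criterion used by the study, an absolute log2 fold change over 0.5 together with an unadjusted p-value below 0.01. *Cxcl13* met it once the date in the labels entered the fit. Of all genes tested, 0.844% met it by group alone and 1.82% with the date. None of the 9 chemokines reached an adjusted p under 0.05 in edgeR in either fit. An unadjusted p below 0.05 was reached by 3 of them by group alone, as by 1230 of all 17537 genes tested. With the date in the fit the share of all genes at that level was not counted, so no such count is compared here. By group alone limma-voom and DESeq2 called 0 of the 9 as well, and DESeq2 with the date called 3. Likewise 3 of the 9 were called in edgeR with the date and with trends on gene length and GC content removed. *Cxcl2*, *Cxcl10*, *Cxcl14* and *Pf4* did not meet the criterion, and the neutrophil attractants *Cxcl1* and *Cxcl3* were too scarce to be tested.

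CXC chemokines are small secreted proteins, named for the residue that separates their first pair of cysteines, and they guide leukocytes through receptors coupled to G proteins. Those with an ELR motif ahead of the cysteines (CXCL1, CXCL2 and CXCL3 here) attract neutrophils through CXCR2 and are typically induced through NF-kB. CXCL9 and CXCL10 lack that motif, are typical interferon-induced genes and attract T and natural killer cells through CXCR3. CXCL13 attracts B cells through CXCR5, CXCL16 is made as a transmembrane protein that binds CXCR6, and PF4 is best known from platelet granules. In the brain, microglia and astrocytes make several of these chemokines during infection, injury and autoimmune inflammation.

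The promoters of *Cxcl9*, *Cxcl10* and *Cxcl13* are shown because these are the interferon-type pair and the B cell attractant that the results turn on. Each runs from 250 bases before to 50 bases after the start of the gene in RefSeq (GRCm38.p6), at chr5:92328030-92328329 on the minus strand for *Cxcl9*, chr5:92348840-92349139 on the minus strand for *Cxcl10* and chr5:95956689-95956988 on the plus strand for *Cxcl13*. Capitals mark matches on either strand to GAAANNGAA (core of the interferon-stimulated response element), TTCNNNGAA (the STAT-type element GAS), GGNNTTTCC (NF-kB) or TATAAA.

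Cxcl9: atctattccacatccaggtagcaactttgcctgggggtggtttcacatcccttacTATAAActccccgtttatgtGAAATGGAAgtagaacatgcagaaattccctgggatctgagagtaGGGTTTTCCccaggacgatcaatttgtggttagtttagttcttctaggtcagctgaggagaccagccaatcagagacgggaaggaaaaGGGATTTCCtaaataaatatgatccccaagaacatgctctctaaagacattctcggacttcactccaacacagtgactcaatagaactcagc

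Cxcl10: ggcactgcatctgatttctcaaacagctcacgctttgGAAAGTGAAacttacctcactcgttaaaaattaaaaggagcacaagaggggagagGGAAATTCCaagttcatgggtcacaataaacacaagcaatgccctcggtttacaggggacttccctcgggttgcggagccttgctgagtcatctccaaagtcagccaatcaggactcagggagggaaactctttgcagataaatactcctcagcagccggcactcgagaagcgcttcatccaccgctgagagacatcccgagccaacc

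Cxcl13: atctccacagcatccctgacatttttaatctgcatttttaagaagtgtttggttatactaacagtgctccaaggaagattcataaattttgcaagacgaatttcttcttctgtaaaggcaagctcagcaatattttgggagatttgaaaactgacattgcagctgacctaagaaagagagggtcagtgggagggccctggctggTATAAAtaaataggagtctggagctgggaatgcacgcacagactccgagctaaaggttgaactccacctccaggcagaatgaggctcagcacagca

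The RefSeq promoters used here matched 8 of the 9 genes, *Cxcl16* excepted. The interferon-type core was found in 3 of the 8, at base -175 of *Cxcl9*, -213 of *Cxcl10* and -172 of *Cxcl14*, and in 8.56% of 32851 mouse promoters of the same length. The NF-kB letters were found in 5 of the 8 (*Cxcl1*, *Cxcl2*, *Cxcl3*, *Cxcl9* and *Cxcl10*), against 5.82% of all promoters. The GAS letters were found in *Cxcl14* alone, at -191, against 8.3% of all promoters. TATAAA was found in *Cxcl3*, *Cxcl9* and *Cxcl13*, against 13.6% of all promoters. *Cxcl13* thus held neither the interferon-type core nor the NF-kB letters in this window, while *Cxcl9* and *Cxcl10* held both. A match describes these letters only, and binding of a factor was not measured.

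Libraries held 21287816 to 23703216 counts, so the depths were nearly equal, and 3 counts, taken as the floor of detection, corresponded to 0.124 to 0.147 CPM (counts scaled to library sizes corrected by TMM, a factor for composition). Mitochondrial genes took 1.97% to 2.41% of counts in 6 libraries and 4.85% and 5.59% in IgG libraries 1 and 3. Microglia genes were abundant, with summed levels of 6202 to 7090 CPM in control and 7141 to 7862 CPM in IgG libraries for 10 markers, although the homeostatic markers *P2ry12* and *Tmem119* were low in control cultures, at 6.98 and 5.09 CPM. Of these, 3 microglia markers (*Tmem119*, *Aif1* and *Fcrls*) met the criterion in edgeR, each higher with IgG, where 0.582% of all genes did so. *Tmem119* no longer met it with the date in the fit. The 9 genes of border-associated macrophages summed to 453.4 to 698.8 CPM in control and 587 to 1173 CPM in IgG libraries. *Ms4a7* met the criterion, and *Cbr2*, *Ms4a7* and *Siglec1* met it with the date in the fit (0.582% and 1.48% of all genes in the higher direction). Of the 7 genes of this list that were tested, 4 had a fitted change above 0 and 3 below. In all 4 pairs 3 were higher and 1 was lower, as were 10.4% and 8.47% of all genes tested. Of the same list *Mrc1* was at 67.1 and 79.0 CPM and *Folr2* at 10.9 and 10.6 CPM in control and IgG cultures, while *Cd163* and *Lyve1* were too low to be tested. Genes of other cells were present as well, with summed levels of 972 to 1726 CPM for the oligodendrocyte lineage, 119 to 145 CPM for astrocytes, 119 to 162 CPM for endothelial cells, 73.7 to 116 CPM for fibroblasts and 34.0 to 63.5 CPM for neurons. Sums reached at most 3.36 CPM for T and natural killer cells, 2.23 CPM for neutrophils and 0.555 CPM for B cells. None of the tested genes in these 8 lists or of megakaryocytes met the criterion in edgeR. Of them 1 had an unadjusted p below 0.05, as had 1230 of all 17537 genes tested. With the date in the fit only the endothelial gene *Cdh5* met the criterion. In such bulk samples a change in the share of a cell type and a change in RNA per cell cannot be told apart.

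*Cxcl9* (ENSMUSG00000029417, chr5:92321347-92328079, minus strand) encodes the T cell attractant MIG, a classical target of interferon gamma. Its level was 2.65, 1.31, 1.21 and 0.818 CPM in control libraries 1 to 4 and 7.49, 3.26, 7.02 and 1.64 CPM in IgG libraries 1 to 4. The groups overlapped, because IgG library 4 lay below control library 1, yet each IgG library exceeded the control of its own date. Mean levels of the control and IgG cultures were 1.50 ± 0.799 and 4.85 ± 2.86 CPM (SD, n = 4 each), from 19 to 64 and 36 to 162 counts. Within the pairs, the log2 changes were 1.47, 1.26, 2.45 and 0.93. In edgeR the log2 fold change was 1.68 (SE 0.498, unadjusted p = 0.00695, adjusted p = 0.692), which met the criterion, and with the date as a block it was 1.63 (SE 0.261, adjusted p = 0.0509). *Cxcl9* had the largest fitted change of the 7 chemokines tested.

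The change in *Cxcl9* kept its direction in each of 28 alternative analyses, from 1.18 to 2.12 on the log2 scale, with adjusted p-values from 9.24e-05 to 1. Without pairs 1 and 3, whose IgG libraries had the high mitochondrial share, it was 1.21 in edgeR (unadjusted p = 0.019), and with the date as a block it was 1.18 and met the criterion on 1 residual degree of freedom. It fell short of the criterion in edgeR without control library 2, 3 or 4, IgG library 1 or 3, or pair 2 or 3, at 1.37 or above in each case. *Cxcl9* was among the inflammatory and chemotaxis genes that the study picked from these samples, so its direction is no independent evidence.

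*Cxcl10* (ENSMUSG00000034855, chr5:92346638-92348889, minus strand) encodes IP-10, the other CXCR3 ligand tested. It measured 7.42, 4.10, 8.42 and 2.97 CPM in control and 10.9, 3.44, 10.4 and 4.42 CPM in IgG libraries. The libraries of dates 1 and 3 were high in both groups, and the spread between dates was wider than the difference between treatments. Means were 5.73 ± 2.60 and 7.28 ± 3.90 CPM (SD, n = 4 each), and the log2 differences within pairs were 0.54, -0.25, 0.30 and 0.56. The log2 fold change was 0.34 (SE 0.428, adjusted p = 0.823 in edgeR), or 0.30 with the block (SE 0.17, adjusted p = 0.563). It moved to 0.08 without IgG library 1, to 0.59 without control library 3 and to 0.15 without pairs 1 and 3. Pair 2 thus went the other way for *Cxcl10* while *Cxcl9* was higher in that pair. *Cxcl10* lies within *Art3*, a gene of the opposite strand that shares 133 exon bases with it, and *Art3* itself had 11 to 39 counts per library.

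*Cxcl13* (ENSMUSG00000023078, chr5:95956951-95961068, plus strand) encodes the B cell attractant BLC. It measured 8.46, 5.14, 10.0 and 4.09 CPM in control and 19.6, 8.09, 29.6 and 7.01 CPM in IgG libraries. Libraries 1 and 3 were the highest in both groups, IgG libraries 2 and 4 fell inside the control range, and the groups overlapped. Means were 6.93 ± 2.77 and 16.1 ± 10.7 CPM (SD, n = 4 each), and the log2 differences within pairs were 1.20, 0.64, 1.56 and 0.76. The log2 fold change was 1.21 (SE 0.463, unadjusted p = 0.026, adjusted p = 0.692 in edgeR), which did not meet the criterion. With the date as a block it was 1.08 (SE 0.17, unadjusted p = 0.000211, adjusted p = 0.0509), which did.

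The 2 largest within-pair changes of *Cxcl13* were those of pairs 1 and 3. Without these pairs the edgeR log2 fold change was 0.71 (unadjusted p = 0.007, adjusted p = 0.894), past the criterion, and 0.71 with the block (adjusted p = 0.0544, 1 residual degree of freedom). Over 28 alternatives it ranged from 0.71 to 1.46, with adjusted p-values from 3.06e-05 to 1, and it was past the criterion in 11 of them, which include leaving out IgG library 4 alone (1.46). Leaving out IgG library 3 alone gave 0.74 (unadjusted p = 0.101 in edgeR), which did not meet the criterion. The part of the mitochondrial share in this result was not tested. The study had listed *Cxcl13*, too, among chemotaxis genes chosen from these samples.

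**Figure D1:**
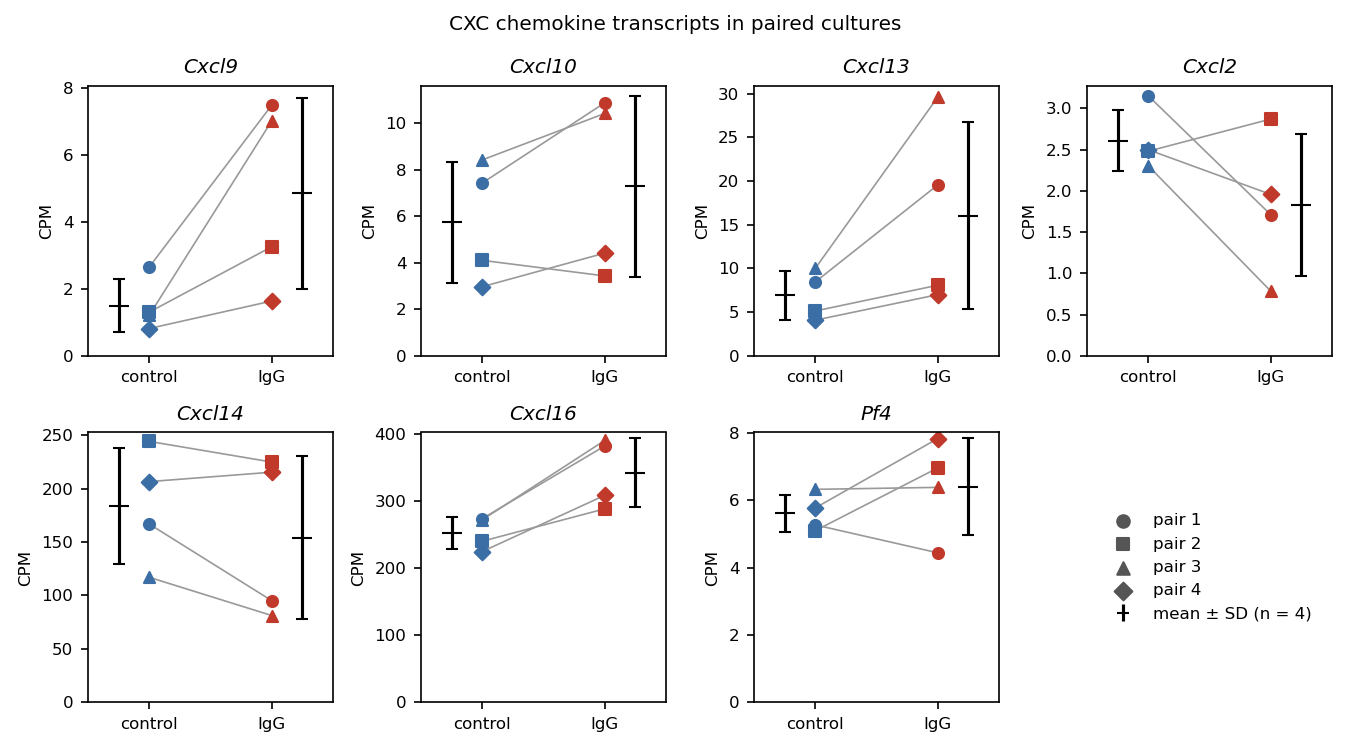
Level in CPM (vertical axes, from 0) of the 7 chemokine genes tested in control (blue) and IgG (red) libraries, with a grey line joining the libraries of 1 date and black bars for the mean ± SD of 4 libraries. Each line rises for Cxcl9, Cxcl13 and Cxcl16, and the Cxcl16 groups alone do not overlap, with 225 to 274 CPM in control and 289 to 391 CPM in IgG libraries.

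*Cxcl16* (ENSMUSG00000018920, chr11:70453983-70459984, minus strand) encodes the membrane-anchored ligand of CXCR6, which also acts as a scavenger receptor for oxidized lipoprotein. It measured 274, 240, 272 and 225 CPM in control and 382, 289, 391 and 309 CPM in IgG libraries. Every IgG library lay above every control library, which held for 2.6% of all genes tested in this direction. Means were 253 ± 24.3 and 343 ± 51.5 CPM (SD, n = 4 each), and the log2 differences within pairs were 0.48, 0.26, 0.52 and 0.46. The log2 fold change was 0.44 (SE 0.123, unadjusted p = 0.00511, adjusted p = 0.692 in edgeR) and 0.43 with the block (SE 0.0893, adjusted p = 0.127). In both fits the unadjusted p was under the threshold, and it was the fold that kept *Cxcl16* below the criterion. Without pairs 1 and 3 the log2 fold change was 0.36 and the unadjusted p was 0.0125 in edgeR, above the threshold. The unadjusted p was above it too without control library 2 or 4, IgG library 1 or 3, or pair 1, 3 or 4. With the block in edgeR it was above it without pair 1 (0.0102), without pair 3 (0.0119) and without both (0.0125). Over the alternatives the log2 fold change ranged from 0.33 with scaling by total counts to 0.51 without IgG library 2, where *Cxcl16* met the criterion.

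The annotation places 552 exon bases of *Cxcl16* on top of *Zmynd15*, a gene of the opposite strand, and the strand setting of the counting is not given in the sources used here. Reads in the shared stretch may therefore belong to either gene. *Zmynd15* measured 102.9 ± 11.7 CPM in control and 124.8 ± 7.04 CPM in IgG cultures (SD, n = 4 each), also without overlap, with a log2 fold change of 0.28 (SE 0.0977, adjusted p = 0.692 in edgeR). The *Cxcl16* level was thus the larger of the 2, and its fitted change was the larger as well, a difference that was not tested.

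*Cxcl14* (ENSMUSG00000021508, chr13:56288643-56296551, minus strand) encodes a chemokine of epithelia and some brain cells, without a settled receptor. It measured 167, 244, 117 and 207 CPM in control and 95.2, 225, 81.3 and 215 CPM in IgG libraries. Libraries 1 and 3 were the lowest in both groups, the reverse of *Cxcl10* and *Cxcl13*, and the groups overlapped. Means were 184 ± 54.5 and 154 ± 76.4 CPM (SD, n = 4 each), and the log2 differences within pairs were -0.81, -0.12, -0.52 and 0.06. The log2 fold change was -0.25 (SE 0.346, adjusted p = 0.839 in edgeR) and -0.35 with the block (SE 0.145, adjusted p = 0.479). Without pairs 1 and 3 it was -0.03. Leaving out 1 library gave -0.04 (IgG library 3) to -0.49 (IgG library 2), with -0.08 without control library 2 or IgG library 1, -0.42 without control library 3 and -0.46 without IgG library 4.

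Genes of the oligodendrocyte lineage and of neurons had the same low libraries as *Cxcl14*. The summed level of the 8 oligodendrocyte-lineage genes was 1132, 1726, 1172 and 1564 CPM in control libraries 1 to 4 and 971.7, 1622, 986 and 1517 CPM in IgG libraries 1 to 4, so libraries 1 and 3 were lowest in both groups here too. The 6 neuronal genes summed to 37.9, 53.9, 47.6 and 63.5 CPM in control and 34.0, 50.6, 45.2 and 48.5 CPM in IgG libraries, lowest again in libraries 1 and 3. All 8 oligodendrocyte-lineage genes had a fitted change below 0 and none met the criterion. Of these, 1 was lower in all 4 pairs, which held for 8.47% of all genes tested. The part of either list in the *Cxcl14* values was not tested.

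**Figure D2:**
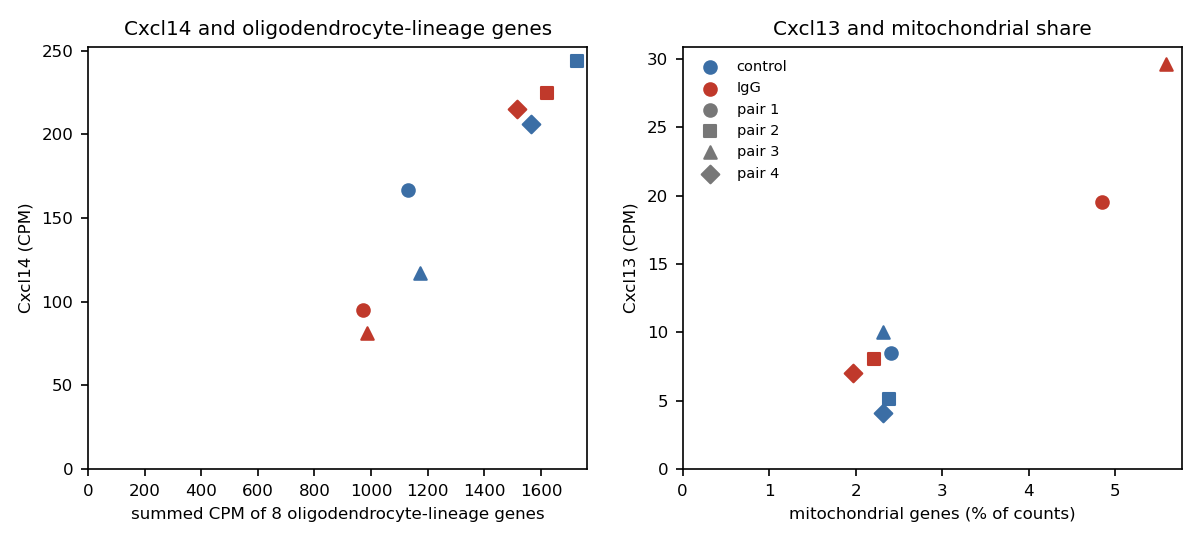
Left, Cxcl14 level in CPM against the summed CPM of 8 oligodendrocyte-lineage genes in each library; right, Cxcl13 level in CPM against the mitochondrial share of counts in percent, with control in blue, IgG in red and 1 symbol per pair. Pairs 1 and 3 sit at the low end on the left, with Cxcl14 at 81.3 to 167 CPM, and their IgG libraries stand apart on the right at 4.85% and 5.59% mitochondrial counts.

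*Cxcl2* (ENSMUSG00000058427, chr5:90903871-90905938, plus strand), which encodes the neutrophil attractant MIP-2, was the one ELR chemokine that could be tested. It measured 3.15, 2.48, 2.30 and 2.50 CPM in control and 1.71, 2.87, 0.785 and 1.96 CPM in IgG libraries. The control libraries lay close together, while IgG libraries 1 and 3 were the lowest and IgG library 2 exceeded 3 of the control libraries. Means were 2.61 ± 0.373 and 1.83 ± 0.857 CPM (SD, n = 4 each), and the log2 differences within pairs were -0.85, 0.20, -1.45 and -0.34. The log2 fold change was -0.50 (SE 0.322, adjusted p = 0.709 in edgeR) and -0.58 with the block (SE 0.287, adjusted p = 0.532), and without pairs 1 and 3 it was -0.04. Leaving out IgG library 3 gave -0.26 and leaving out IgG library 2 gave -0.805. IgG libraries 1 and 3 are those with the high mitochondrial share, whose part was not tested.

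*Cxcl1* (ENSMUSG00000029380, chr5:90891241-90893115, plus strand), also known as KC, had 5, 3, 14 and 11 counts in control and 7, 4, 10 and 8 counts in IgG libraries. These correspond to 0.351 ± 0.214 and 0.338 ± 0.131 CPM (SD, n = 4 each), close to the floor of detection. *Cxcl3* (ENSMUSG00000029379, chr5:90786103-90789600, plus strand) had 0, 3, 1 and 0 counts in control and 1 count in each IgG library, at or below that floor. Neither passed the filter on low counts, so neither was in the main fit. Within pairs the log2 differences of *Cxcl1* were 0.48, 0.23, -0.22 and -0.31, and at these counts a small difference would not be seen. The counts of *Cxcl3* were too few to compare the groups. *Cxcl1*, *Cxcl2* and *Cxcl3* are similar in sequence, and how shared reads were counted is not given in the sources used here.

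*Pf4* (ENSMUSG00000029373, chr5:90772435-90773383, plus strand) measured 5.27, 5.10, 6.32 and 5.77 CPM in control and 4.44, 6.96, 6.38 and 7.83 CPM in IgG libraries. The IgG libraries enclosed the control range. Means were 5.61 ± 0.552 and 6.40 ± 1.44 CPM (SD, n = 4 each), the log2 differences within pairs were -0.24, 0.44, 0.01 and 0.43, and the log2 fold change was 0.19 (SE 0.181, adjusted p = 0.773 in edgeR). It was 0.08 without IgG library 4, 0.33 without IgG library 1 (adjusted p = 0.999) and 0.44 without pairs 1 and 3 (adjusted p = 0.894). Of the platelet markers, *Ppbp*, *Gp9* and *Gp6* had at most 3 counts in any library, while *Treml1* had 41 to 167 and *Gp1bb* 43 to 103 counts, and the 7 megakaryocyte and platelet genes summed to 6.45 to 10.9 CPM in control and 5.36 to 9.70 CPM in IgG libraries.

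Seen as a group, 7 of the 9 genes passed the filter on low counts, 5 with a fitted change above 0 and 2 below. Their median log2 fold change was 0.34, against 0.00355 over all 17537 genes tested. One of the 9 (*Cxcl9*) met the criterion in edgeR, where 148 genes or 0.844% of those tested did, 0.582% in the higher direction. With the date as a block *Cxcl9* and *Cxcl13* met it, where 320 genes or 1.82% did, 1.48% in the higher direction. Of the 9, 3 were higher in all 4 pairs, which held for 10.4% of the genes tested.

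At an adjusted p under 0.05, edgeR called 0 genes or 0% of those tested, while 1230 genes had an unadjusted p below 0.05, and limma-voom called 0 and DESeq2 53. With the block edgeR called 69 genes or 0.393%, again with none of the 9. Of the 7 chemokines tested, 3 had an unadjusted p below 0.05 in edgeR. With the block *Cxcl9*, *Cxcl13*, *Cxcl14* and *Cxcl16* were below it (0.000232, 0.000211, 0.0434 and 0.00125 in edgeR), where the share of all genes was not counted. DESeq2 with the block called 231 genes and put *Cxcl9*, *Cxcl13* and *Cxcl16* below an adjusted p of 0.05.

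**Figure D3:**
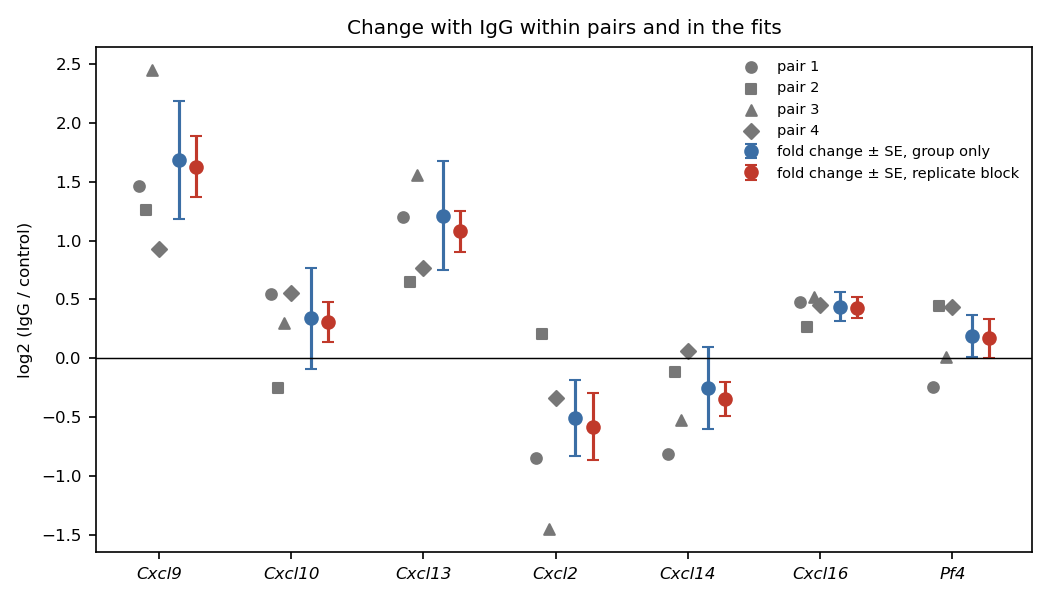
log2 change (IgG over control, vertical axis) of the 7 genes tested, with grey symbols for the 4 pairs and points with bars for the edgeR log2 fold change ± SE, by group alone (blue) and with the date as a block (red). The block narrows the bars of Cxcl9 from 0.498 to 0.261 and of Cxcl13 from 0.463 to 0.17, while Cxcl2 and Cxcl14 lie below 0.

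Levels were compared between genes as CPM per kb of exon, since transcripts differ in length. In control cultures *Cxcl14* was at 100.5 ± 29.8 and *Cxcl16* at 83.7 ± 8.03 CPM per kb (SD, n = 4 each), values that did not differ beyond their spread. Next came *Pf4* at 7.79 ± 0.766 and *Cxcl13* at 6.02 ± 2.41 CPM per kb, which did not differ beyond their spread either. *Cxcl10* followed at 2.54 ± 1.16, *Cxcl2* at 1.26 ± 0.18 and *Cxcl9* at 0.497 ± 0.265 CPM per kb. By mean ± SD, *Cxcl13* overlapped *Cxcl10* and *Cxcl10* overlapped *Cxcl2*, while *Cxcl2* lay clear of *Cxcl9*. Within each control library, however, *Cxcl13* was above *Cxcl10* and *Cxcl10* above *Cxcl2*. In IgG cultures *Cxcl16* was at 113 ± 17.0 and *Cxcl14* at 84.4 ± 41.8 CPM per kb, within their spread, and IgG libraries 2 and 4 had *Cxcl14* above *Cxcl16*. There *Cxcl13* was at 14.0 ± 9.27 and *Pf4* at 8.88 ± 1.99 CPM per kb, and *Cxcl9* at 1.61 ± 0.948 stood above *Cxcl2* at 0.885 ± 0.414, in each case within the spread. *Cxcl1* and *Cxcl3* were last in both groups.

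**Figure D4:**
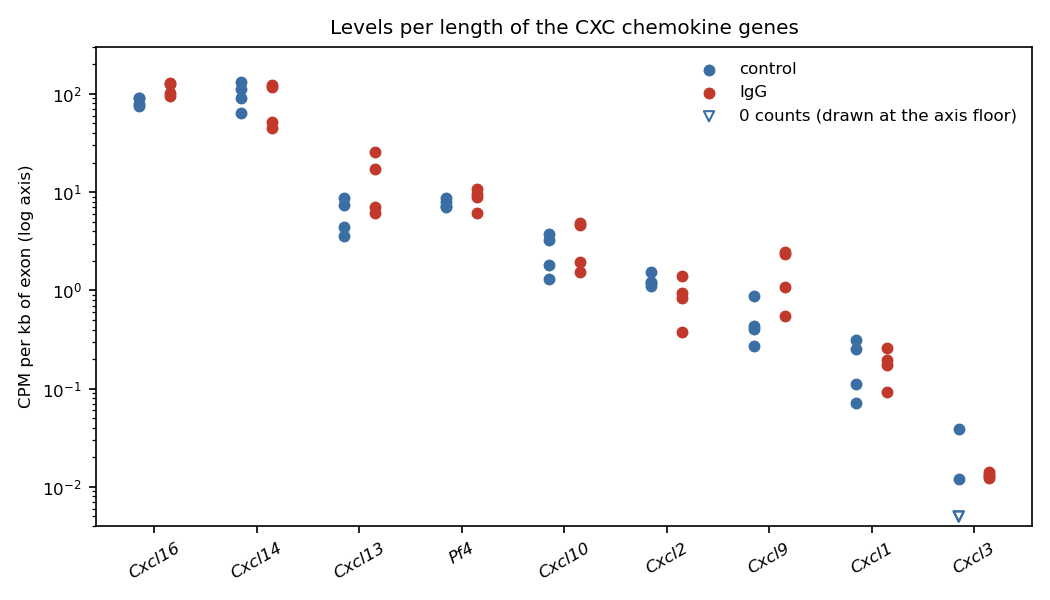
Level per length in CPM per kb of exon (log axis) of the 9 genes in control (blue) and IgG (red) libraries, ordered by the mean over 8 libraries. Cxcl16 and Cxcl14 stand at 98.6 and 92.4 CPM per kb on average, Cxcl13 and Pf4 at 10.0 and 8.33, and open triangles at the floor of the axis mark the control libraries with 0 counts of Cxcl3, which overlie each other.

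The other CXC ligands (*Cxcl5*, *Ppbp*, *Cxcl11*, *Cxcl12*, *Cxcl15* and *Cxcl17*) were too low to be tested, with a summed level of 0.091 to 0.442 CPM. *Cxcl11*, the third ligand of CXCR3, had 0 to 4 counts, and the annotation types it as a polymorphic pseudogene.

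Of 9 receptor genes, 4 could be tested and none met the criterion in edgeR, by group alone or blocked by date, against 0.844% and 1.82% of all genes. In either fit 0 reached an unadjusted p below 0.05, as 1230 of all 17537 genes tested did by group alone. *Cxcr4*, the receptor of CXCL12, was the most abundant, with 97.6 ± 9.28 CPM against 92.9 ± 8.01 CPM with IgG (SD, n = 4 each), with a log2 fold change of -0.07 (SE 0.0968). *Cxcr3*, the receptor of CXCL9 and CXCL10, was at 0.782 and 1.04 CPM (0.40, SE 0.347). The atypical receptors *Ackr3* and *Ackr4*, which take up chemokines without classical signalling, had log2 fold changes of -0.41 (SE 0.337) and 0.27 (SE 0.146). *Cxcr2*, *Cxcr5* and *Cxcr6*, the receptors of the ELR ligands, CXCL13 and CXCL16, had mean levels of 0.0959 to 0.287 CPM and were not tested, and *Cxcr1* had 0 counts in each library.

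STAT and IRF factors are the usual activators of *Cxcl9* and *Cxcl10*. Of 9 described here, none met the criterion in edgeR, and *Irf7* met it with the block, higher with IgG, against 0.844% and 1.82% of all genes in these fits. An unadjusted p below 0.05 was reached by 1 of them by group alone, as by 1230 of all 17537 genes tested. By group alone 1 of the 9 met the criterion in DESeq2, with no filter, in pairs 2 and 4 alone, and without control library 1, IgG library 4 or pair 4. *Irf7*, a factor that amplifies the type I interferon response, averaged 123 ± 54.6 CPM without and 264 ± 108 CPM with IgG (SD, n = 4 each). Its log2 differences within pairs were 1.06, 1.05, 1.11 and 1.30, with 1.13 in the blocked fit (SE 0.0897, adjusted p = 0.00593). The median log2 fold change over the 9 factors was -0.00743, with *Stat2* at 0.46 (SE 0.265), *Irf9* at 0.24 (SE 0.132) and *Irf1* at -0.08 (SE 0.104). With the block *Stat2* was at 0.45 (SE 0.0886, adjusted p = 0.11) and *Irf9* at 0.25 (SE 0.087, adjusted p = 0.423), both higher in all 4 pairs, and the study had named several of these genes from the same samples.

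NF-kB factors, inflammatory inducers and regulators of mRNA decay govern the *Cxcl1* to *Cxcl3* group. Of 16 such genes 15 were tested, *Nfkbiz* met the criterion, and *Nfkbiz* and *Il1b* met it with the block (0.844% and 1.82% of all genes did). Without pair 2 none of them met it by group alone, and 2 did with the block. *Nfkbiz*, an atypical IkB protein that acts in the nucleus, rose from 49.4 ± 7.20 CPM in control to 77.1 ± 12.9 CPM in IgG cultures (SD, n = 4 each), without overlap (log2 fold change 0.64, SE 0.145, adjusted p = 0.574 in edgeR). *Il1b*, an inflammatory cytokine, was at 29.9 ± 9.31 and 46.7 ± 12.3 CPM (SD, n = 4 each), with 0.66 in the blocked fit (SE 0.103, adjusted p = 0.0466). *Tnf* was at 0.11 (SE 0.137) on the log2 scale and *Zfp36*, whose protein destabilizes inflammatory mRNAs, by -0.20 (SE 0.124). *Cxcl2* did not follow *Nfkbiz* and *Il1b*, which were higher in all 4 pairs, while *Cxcl2* was lower in 3 of 4.

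**Figure D5:**
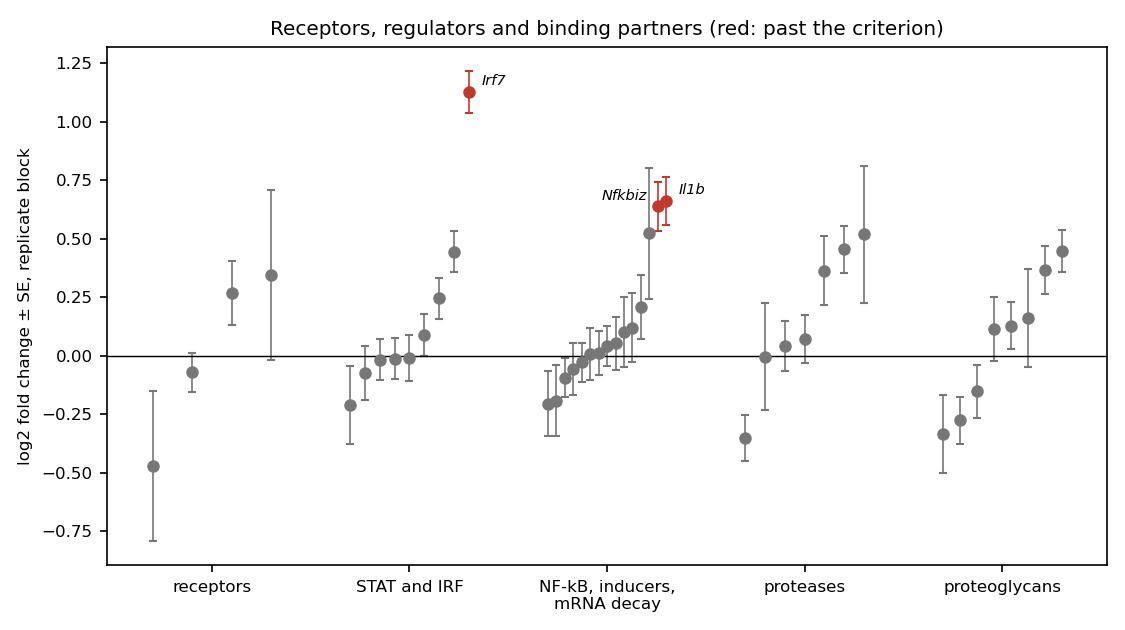
Log2 fold change (IgG over control) ± SE in the edgeR fit with the date as a block for tested genes of 5 groups, namely receptors, STAT and IRF factors, NF-kB and related genes, proteases and proteoglycans; red points with names met the criterion. Irf7 stands highest at 1.13, Il1b and Nfkbiz are at 0.66 and 0.64, and no receptor, protease or proteoglycan met the criterion in this fit.

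Among 8 proteases that shed or trim these chemokines, 7 were tested. None met the criterion in edgeR by group alone or blocked by date, against 0.844% and 1.82% of all genes. An unadjusted p below 0.05 was found for 2 of them by group alone, against 1230 of all 17537 genes tested. *Adam10* and *Adam17*, which release CXCL16 from the membrane, were at 165 and 360 CPM in control cultures with log2 fold changes of 0.06 (SE 0.121) and 0.07 (SE 0.0938). *Mmp12*, macrophage elastase, averaged 2335 ± 268 CPM without and 1825 ± 129 CPM with IgG (SD, n = 4 each), with every IgG library below every control library, as for 1.57% of all genes, and a log2 fold change of -0.36 (SE 0.115, adjusted p = 0.692 in edgeR). Of 8 proteoglycans, which hold chemokines at cell surfaces and in the matrix, all were tested. None met the criterion in edgeR by group alone or with the block, against the same 0.844% and 1.82% of all genes. By group alone 1 of them had an unadjusted p below 0.05, against 1230 of all 17537 genes tested. *Sdc1* was at 32.1 ± 2.78 and 26.5 ± 2.34 CPM and *Hspg2* at 5.36 ± 1.07 and 4.21 ± 0.141 CPM (SD, n = 4 each), likewise without overlap, with log2 fold changes of -0.27 (SE 0.0992) and -0.35 (SE 0.163). *Sdc3* was a more abundant example, at 783 ± 173 and 1074 ± 269 CPM (SD, n = 4 each), and was higher in each pair (log2 fold change 0.46, SE 0.208). *Mmp14*, a membrane-anchored protease, was at 31.6 ± 5.07 and 43.5 ± 7.69 CPM (SD, n = 4 each) and was also higher in each pair, with 0.46 (SE 0.15). With length and GC trends removed and the block, *Sdc3* at 0.56 (SE 0.105, adjusted p = 0.0487) and *Mmp14* at 0.52 (SE 0.106, adjusted p = 0.0651) met the criterion.

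Most of the 9 genes sit in clusters on chromosome 5 (GRCm38), *Pf4*, *Cxcl3*, *Cxcl1* and *Cxcl2* in one, *Cxcl9* and *Cxcl10* in another, with *Cxcl13* farther along. None of the 7 tested protein-coding genes nearest to these clusters met the criterion in edgeR. Of them 1 (*Ccng2*) had an unadjusted p below 0.05, as had 1230 of all 17537 genes tested. *Afp* and *Mthfd2l*, which flank the *Pf4* cluster, had log2 fold changes of 0.04 (SE 0.211) and 0.00 (SE 0.153). Beside *Cxcl9* and *Cxcl10*, *Sdad1* was at 0.00, *Nup54* at -0.07 and *Art3*, 3748 bases from *Cxcl9*, at 0.62 (SE 0.453) with all 4 pairs higher. *Ccng2* and *Cnot6l*, 2680720 and 109265 bases from *Cxcl13*, were at -0.24 and 0.32, and *Med11* and *Psmb6* beside *Cxcl16* at 0.09 and 0.03. *Tgfbi*, 312972 bases from *Cxcl14*, met the criterion at 0.70 (SE 0.176), while *Tifab* on the other side was at -0.20.

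The genes whose log2 CPM ran closest to each chemokine over the 8 libraries were sought among 11928 genes with a mean of at least 5 CPM, as a description of 8 points that share treatment and date. For *Cxcl9* these were *St3gal6* (r = 0.995), *Ly86* (r = 0.987) and *Pik3r5* (r = 0.982). For *Cxcl13* they were *Atxn1* (r = 0.987), *March5* (r = 0.986) and the mitochondrial tRNA gene *mt-Ti* (r = 0.985), and for *Cxcl10* they were *Cd300lf* (r = 0.982), *Uap1* (r = 0.968) and *Gm8810* (r = 0.967). For *Cxcl16* they were *Denr* (r = 0.996), *Shisa5* (r = 0.992) and *Tmem86a* (r = 0.987), and for *Cxcl14* *Arhgap33* (r = 0.981), *C1qtnf12* (r = 0.980) and *Evi5l* (r = 0.979). *Cxcl2* ran closest to *Ulk1* (r = 0.967), *Gm9970* (r = 0.962) and *Rasgef1a* (r = 0.956), and *Pf4* to *Ubac1* (r = 0.939), *Gm11263* (r = 0.927) and *Ccdc32* (r = 0.925).

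Among the chemokines themselves, *Cxcl13* ran with *Cxcl16* (r = 0.934), *Cxcl9* (r = 0.887) and *Cxcl10* (r = 0.866) and opposite to *Cxcl14* (r = -0.91) over the same 8 libraries. *Cxcl9* ran closely with *Irf7* over these libraries (r = 0.943), while their changes within the 4 pairs gave r = -0.398, from 4 points.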

How the data were processed

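RNA was sequenced from 4 control and 4 IgG cultures. The authors deposited whole-number counts per gene, not normalized. The submitters' processing notes name HISAT2 2.2.1, SAMtools 1.12, Picard 2.26.3, featureCounts, R 4.1.2, edgeR 3.36.0 and GRCm38, and the annotation, the strand setting and the treatment of multi-mapping reads are not given in the sources used here. Symbols, positions and exon lengths came from GENCODE M21 and matched 55144 of 55385 genes. Counts were fitted with edgeR 4.0.16 in R 4.3.3 (quasi-likelihood test, TMM scaling, filterByExpr, group only) over all 17537 genes left, with Benjamini-Hochberg adjustment over all of them. CPM used TMM library sizes, and pair changes were differences of log2 CPM with a prior count of 2. Scripts were tested on simulated data.

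The labels give libraries of the same number the same date, and their deviations from the group means correlated at 0.468, 0.429, 0.28 and 0.325. Between libraries of different numbers these correlations ran from -0.384 to 0.278, so pair 3 lay barely above that range. The fit with the replicate number as a block is given where it changes a call. The labels do not say that replicates came from separate animals, and p-values measure the spread between these cultures. No libraries of a group agreed within sampling noise. Alternatives were other scalings, filters and tests (limma 3.58.1, DESeq2 1.42.0), removal of length and GC trends, and leaving out libraries or pairs. The genes named were all 9 chemokines, receptors and related genes past the criterion, nearest tested neighbours and the 3 genes most alike to each. Members and lists were chosen with earlier results of these data known, and other related genes given as examples were chosen after their values were seen. The floor of 3 counts covers counting error only. Some genes of the related lists are not reported here, and list counts leave them out. Protein sequences were not used here.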

Additional observations from a re-analysis of the deposited data

How the results depend on the processing

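Each of the 7 chemokines tested kept its direction in all 28 alternatives. Genes past the criterion numbered 148 in edgeR, 320 with the replicate block, 284 with no filter, 350 by DESeq2 with the block, 324 with length and GC trends removed and the block, and 327 in pairs 2 and 4 alone with the block (chosen after seeing the data). Leaving out a library or pair gave 56 (without pair 3) to 610 (without IgG library 4), and 215, 326, 216 and 762 with the block without pair 1, 2, 3 or 4. At adjusted p under 0.05 there were 0 genes in edgeR, 69 with the replicate block, 4 with no filter, 53 by DESeq2, 231 by DESeq2 with the block, 197 with trends removed and the block, 3 in pairs 2 and 4 alone and 190 there with the block and 0 to 6 with a library or pair left out, and 14, 0, 16 and 182 with the block without pair 1, 2, 3 or 4. Chemokines past the criterion numbered 1 in edgeR, 2 with the block, with no filter, in DESeq2 with the block, with trends removed and the block and in pairs 2 and 4 with the block, 0 by limma-voom, and 0 to 2 with libraries or pairs left out. Those at adjusted p under 0.05 numbered 0 in edgeR, 3 in DESeq2 with the block and with trends removed and the block, and 0 to 2 with libraries or pairs left out. Cxcl9 lost the criterion by limma-voom, without pairs 1 and 3, and without control library 2, 3 or 4, IgG library 1 or 3, pair 2 or pair 3. The causes were not tested beyond the fewer samples or genes in each. With all libraries in edgeR the block changed no call by the criterion of a chemokine other than Cxcl13, and without pair 2, without pair 3 or without pairs 1 and 3 it restored that of Cxcl9. Scaling by total counts shifted the median log2 fold change by -0.0937 and the share of higher calls from 68.9% to 42.3%. A prior count of 0.5 changed the direction of no pair change. At this depth Cxcl3 could not be compared, and a small difference in Cxcl1, at 3 to 14 counts per library, would not be seen. No sample of a chemokine stood apart from its group by Dixon's test in 14 groups.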
